A study of Mus musculus with 15 samples.

Results

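Heat shock proteins and their co-chaperones were followed through 10 genes, namely the HSP70 genes *Hspa1a* and *Hspa1b*, the constitutive HSP70 gene *Hspa8*, the HSP110 gene *Hsph1*, the small heat shock protein genes *Hspb1*, *Hspb7*, *Hspb8* and *Cryab*, the J-domain co-chaperone gene *Dnajb1* and the BAG co-chaperone gene *Bag3*. They were taken by gene identifier from a count table of 30672 genes, and all 10 were among the 15533 genes that passed the filter on low counts. The libraries came from the tibialis anterior of 129Pas males at 7 weeks of age, either wild type (WT) or with the Mtm1-/y genotype, in which the gene on the X chromosome that encodes myotubularin, a phosphatase of phosphoinositides, is disrupted, a model of X-linked myotubular myopathy. There were 4 libraries each in WT, WT + TAM and Mtm1-/y and 3 in Mtm1-/y + TAM, where TAM is tamoxifen, a selective oestrogen receptor modulator. The groups without TAM are marked CTL in the sample descriptions and carry no treatment in the titles. No source used here gives the tamoxifen regimen or says what the CTL groups received.

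Heat shock proteins hold unfolded proteins in solution and help to refold them or pass them on for degradation. HSP70 proteins bind and release their clients with ATP, J-domain proteins deliver the clients, and HSP110 and BAG proteins exchange the nucleotide. Small heat shock proteins bind unfolding clients without ATP and are abundant in muscle, where BAG3 joins HSPB8 and HSP70 in a complex that removes damaged proteins from the Z-disc by selective autophagy. Heat shock factor 1 induces many of these genes through heat shock elements, which are inverted repeats of the unit GAA.

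Total counts were 18042558 to 45823277 per library. Mtm1 itself had 14.9 to 15.6 CPM (counts scaled to the size of the library and its TMM factor) in WT and 13.5 to 17.7 CPM in WT + TAM, against 2.91 to 3.63 CPM in Mtm1-/y and 3.04 to 3.71 CPM in Mtm1-/y + TAM, so the 7 mutant libraries all had less of it than the 8 wild-type ones. Summed markers of skeletal muscle fibres were between 140912 and 234764 CPM in the 15 libraries. None of these 8 markers had a count of 0 in any library. WT + TAM replicate 1 and Mtm1-/y replicate 1 stood apart from the other libraries on principal components. WT + TAM replicate 1 had the highest sums of slow fibre markers (1455 CPM) and fibroblast markers (4695 CPM). Results that changed without both libraries are given where they occur. The tissue was sequenced in bulk, so that a different share of a cell type and a different amount of RNA per cell cannot be told apart.

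Sequence upstream of the genes is shown first, because the 10 genes are often treated as targets of a common factor. RefSeq promoters (GRCm38.p6, 250 bases before to 50 bases after the start) were at hand for 8 of the 10 genes, in 10 promoters. The 2-unit element was searched as GAANNTTC and TTCNNGAA, each of which reads the same on both strands, and the 3-unit element as GAANNTTCNNGAA and TTCNNGAANNTTC, which are each the reverse complement of the other. Each 3-unit element contains a pair of overlapping 2-unit elements. The 200 bases before the start are printed for *Hspa1a*, *Hspa1b*, *Hspb1*, *Hspb7* and the first start of *Hsph1*. The other promoters were searched in the same way but are not printed. Bases run 5′ to 3′ on the strand of the gene, with 2-unit elements in capitals.
Hspa1a, chr17:34972157-34972356, minus strand: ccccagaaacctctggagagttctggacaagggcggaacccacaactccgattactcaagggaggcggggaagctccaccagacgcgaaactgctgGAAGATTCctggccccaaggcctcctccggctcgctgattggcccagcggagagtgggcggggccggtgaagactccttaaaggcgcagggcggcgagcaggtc
Hspa1b, chr17:34959239-34959438, minus strand: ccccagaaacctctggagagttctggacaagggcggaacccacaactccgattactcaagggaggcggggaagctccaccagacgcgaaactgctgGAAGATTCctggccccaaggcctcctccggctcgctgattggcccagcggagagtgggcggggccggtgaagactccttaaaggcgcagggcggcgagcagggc
Hspb1, chr5:135887719-135887918, plus strand: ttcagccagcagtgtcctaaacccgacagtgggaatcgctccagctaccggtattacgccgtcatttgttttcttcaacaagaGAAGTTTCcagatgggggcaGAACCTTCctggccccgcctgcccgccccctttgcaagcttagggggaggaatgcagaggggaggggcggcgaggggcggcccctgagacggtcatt
Hspb7, chr4:141420579-141420778, plus strand: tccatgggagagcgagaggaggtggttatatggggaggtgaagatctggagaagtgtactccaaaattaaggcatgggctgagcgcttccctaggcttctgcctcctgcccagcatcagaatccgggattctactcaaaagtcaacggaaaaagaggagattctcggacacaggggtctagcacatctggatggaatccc
Hsph1, chr5:149636337-149636536, minus strand: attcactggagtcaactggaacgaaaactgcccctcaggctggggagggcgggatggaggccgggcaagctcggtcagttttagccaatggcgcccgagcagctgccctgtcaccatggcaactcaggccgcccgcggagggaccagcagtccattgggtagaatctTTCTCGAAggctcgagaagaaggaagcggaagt

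The *Hspa1a* and *Hspa1b* promoters were identical at 296 of 300 bases (98.7%), and both held GAAGATTC at positions -104 to -97 from the start. *Hspb1* held GAAGTTTC at -117 to -110 and GAACCTTC at -97 to -90. *Hsph1* held TTCTCGAA at -33 to -26 and, after its first start, the only 3-unit element found in these promoters, TTCTGGAAAGTTC at 37 to 49. GAAGTTTC also stood after the start of *Hspb8*, at 3 to 10, and of *Bag3*, at 43 to 50. *Hspb7* and *Dnajb1* held no match in this window. Of 32851 mouse promoters of the same length, 4946 (15.1%) held a 2-unit element and 198 (0.603%) a 3-unit element. These matches describe letters only, and binding was not measured.

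In all, 7 of the 10 genes were higher in Mtm1-/y muscle than in WT without tamoxifen in either, and none was lower. They were *Hspa1a*, *Hspa1b*, *Hspb1*, *Hspb7*, *Hspb8*, *Cryab* and *Bag3*. Among all tested genes 15.5% were called higher in this comparison and 30.4% in either direction (edgeR quasi-likelihood test, Benjamini-Hochberg adjusted p under 0.05). The median of their log2 fold changes over the 10 genes was equal to a fold of 2.14, while that over all tested genes was 0.00047 on the log2 scale. In 6 of the 10 genes every Mtm1-/y library was above every WT library, which held for 14.8% of all tested genes, and *Cryab* was the called gene whose groups overlapped. *Hspa8*, *Hsph1* and *Dnajb1* were not called.

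**Figure D1:**
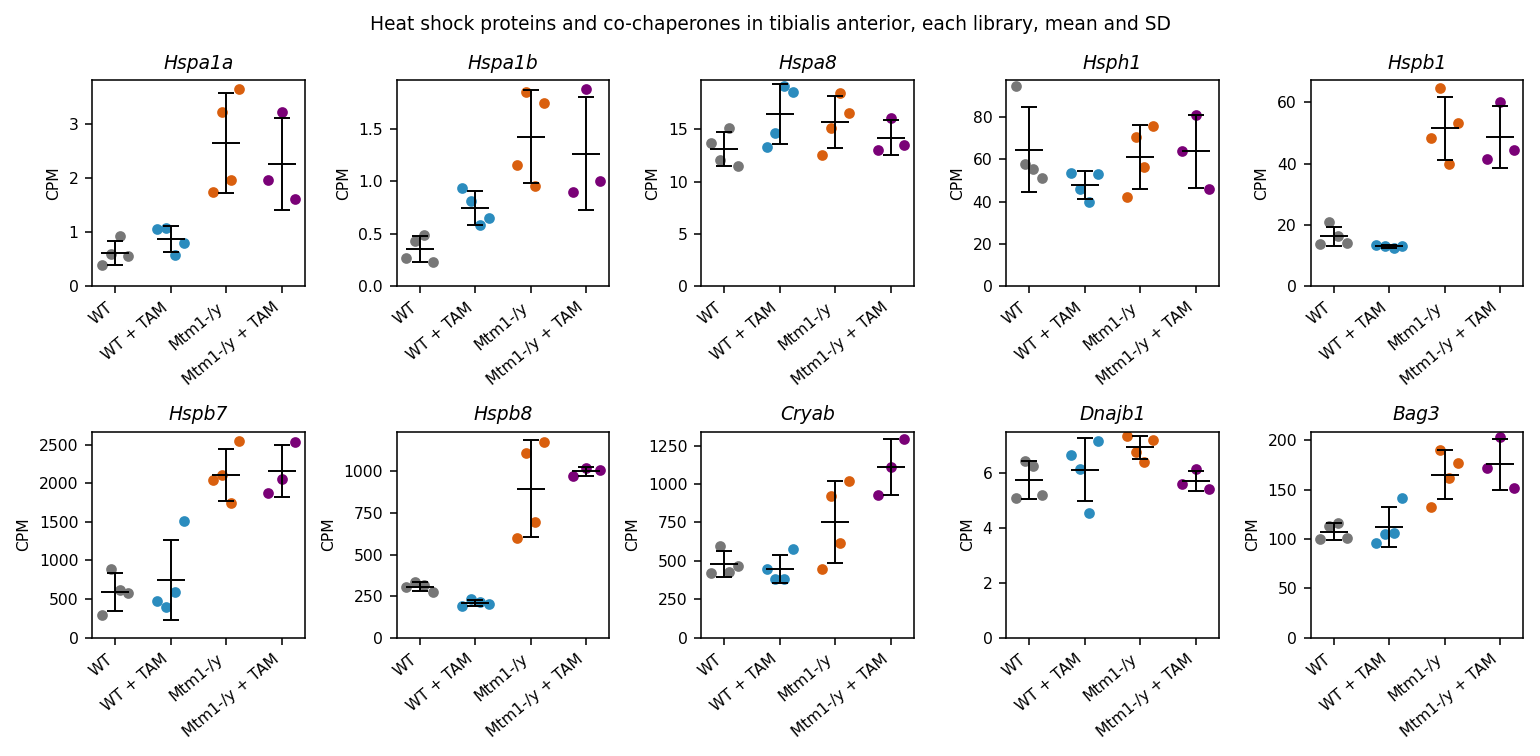
Level of each of the 10 genes in CPM (vertical axis, from 0, with a different scale for each gene) in each library (points) of the 4 groups, with the group mean and SD (bars). *Hspb1*, *Hspb7* and *Hspb8* are separated by genotype with and without tamoxifen, while *Hspa8* and *Hsph1* overlap between the genotypes.

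The small heat shock proteins made up most of the RNA of these genes. *Hspb1*, *Hspb7*, *Hspb8* and *Cryab* together had 1398 ± 336 CPM in WT of 1590 ± 329 CPM for the 10 genes, and 3809 ± 840 of 4062 ± 874 CPM in Mtm1-/y (SD, n = 4 each). *Hspb7* alone supplied 36.3% of the summed 10 genes in WT and 52.6% in Mtm1-/y.

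*Hspb7*, a small heat shock protein of heart and skeletal muscle that binds filamin C, changed most in CPM. It lies on chromosome 4 at 141420779 to 141425311, plus strand (GRCm38, as for all positions here). It had 297, 892, 612 and 578 CPM in the 4 WT libraries and 2042, 2105, 1740 and 2551 CPM in the 4 Mtm1-/y libraries. The lowest mutant library was above the highest WT library, although WT libraries had a coefficient of variation of 40.9%. The log2 fold change was 1.83 ± 0.40 (SE), a fold of 3.55, with an adjusted p of 0.0041 (edgeR).

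*Hspb8*, which encodes the partner of BAG3 (chromosome 5, 116408491 to 116422864, minus strand), had 303, 336, 314 and 275 CPM in WT and 598, 1113, 695 and 1180 CPM in Mtm1-/y. WT libraries lay close together and mutant libraries did not, with replicates 2 and 4 well above replicates 1 and 3. Its log2 fold change was 1.55 ± 0.18 (adjusted p = 3.1e-05, edgeR). *Hspb1*, which encodes the mouse HSP25 protein that binds actin filaments and intermediate filaments (chromosome 5, 135887919 to 135889563, plus strand), had 13.8, 20.8, 16.2 and 14.1 CPM in WT and 48.4, 64.5, 39.9 and 53.3 CPM in Mtm1-/y. The groups were far apart relative to the spread within them, and the log2 fold change was 1.67 ± 0.16 (adjusted p = 6.44e-06, edgeR), the smallest adjusted p among the 10 genes in this comparison.

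*Cryab* encodes αB-crystallin, a chaperone of the lens and of muscle that binds desmin, and lies on chromosome 9 at 50751325 to 50756636, plus strand. It had 420, 598, 430 and 469 CPM in WT and 448, 920, 616 and 1022 CPM in Mtm1-/y. Mtm1-/y replicate 1 lay inside the WT range and the other mutant libraries above it. The log2 fold change was 0.65 ± 0.23 with an adjusted p of 0.041 (edgeR). The call was lost with upper-quartile factors (adjusted p = 0.0595), with limma-voom (0.0595), with no count filter (0.0959) and in a fit of the 2 groups alone (0.0727). It was also lost, with adjusted p from 0.0519 to 0.133 and log2 fold changes from 0.46 to 0.65, without WT replicate 1, 3 or 4, Mtm1-/y replicate 2 or 4, or Mtm1-/y + TAM replicate 2.

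*Hspa1a* and *Hspa1b* encode the stress-inducible HSP70 and lie next to each other on chromosome 17 (*Hspa1a* at 34969190 to 34972156 and *Hspa1b* at 34956436 to 34959238, minus strand). *Hspa1a* had 0.394, 0.593, 0.929 and 0.557 CPM in WT and 1.75, 3.23, 1.97 and 3.65 CPM in Mtm1-/y. *Hspa1b* had 0.271, 0.435, 0.487 and 0.235 CPM in WT and 1.15, 1.86, 0.953 and 1.75 CPM in Mtm1-/y. For both genes each mutant library was above each WT library. These values rest on few reads, 15 to 21 counts for *Hspa1a* and 8 to 11 for *Hspa1b* in WT, and 62 to 163 and 30 to 78 in Mtm1-/y. The log2 fold change was 2.13 ± 0.34 for *Hspa1a* (adjusted p = 0.000375, edgeR). For *Hspa1b* it was 2.03 ± 0.34 (adjusted p = 0.000565, edgeR). With the counts of both genes summed it was 2.09 ± 0.32 (adjusted p = 0.000245, edgeR).

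*Bag3* encodes the co-chaperone that links HSP70 to HSPB8 and lies on chromosome 7 at 128523616 to 128546981, plus strand. It had 99.7, 113, 116 and 101 CPM in WT and 132, 190, 162 and 176.9 CPM in Mtm1-/y. The groups did not overlap, and the log2 fold change of 0.62 ± 0.14 (adjusted p = 0.0037, edgeR) was the smallest among the called genes.

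The remaining genes, *Hspa8*, *Dnajb1* and *Hsph1*, were not called. *Hspa8* lies on chromosome 9 at 40800984 to 40810087 (plus strand), *Dnajb1* on chromosome 8 at 83608193 to 83612653 (plus strand) and *Hsph1* on chromosome 5 at 149614287 to 149636376 (minus strand). *Hspa8* had 13.7, 12.1, 15.1 and 11.5 CPM in WT and 12.6, 15.1, 18.5 and 16.5 CPM in Mtm1-/y (log2 fold change 0.26 ± 0.14, adjusted p = 0.185, edgeR). *Dnajb1*, the HSP40 partner of HSP70, had 5.09, 6.44, 6.28 and 5.22 CPM in WT and 7.38, 6.78, 6.42 and 7.21 CPM in Mtm1-/y (log2 fold change 0.27 ± 0.14, adjusted p = 0.154, edgeR). The groups overlapped for both genes, for *Dnajb1* only through WT replicate 2 and Mtm1-/y replicate 3. *Hsph1*, the HSP110 nucleotide exchange factor, had 94.6, 57.6, 55.2 and 51.1 CPM in WT and 42.3, 70.7, 56.3 and 75.9 CPM in Mtm1-/y (log2 fold change -0.08 ± 0.23, adjusted p = 0.825, edgeR). WT replicate 1 was the highest *Hsph1* library of all 15, and without it the log2 fold change was 0.17. Without both libraries that stood apart, *Hsph1* was at 0.064 and *Hspa8* was called at a log2 fold change of 0.36 (adjusted p = 0.0367, edgeR).

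Per kilobase of exon, the order of the mean levels in WT was *Cryab* (324 ± 55.2 CPM per kilobase), *Hspb7* (215 ± 87.9), *Hspb8* (157 ± 13.2), *Bag3* (42.0 ± 3.29), *Hspb1* (15.8 ± 3.13), *Hsph1* (8.89 ± 2.77), *Hspa8* (3.04 ± 0.38), *Dnajb1* (1.80 ± 0.22), *Hspa1a* (0.208 ± 0.0758) and *Hspa1b* (0.127 ± 0.0438), each as mean ± SD of 4 libraries. Neighbours in this order whose means differed by less than the sum of their SDs were *Cryab* and *Hspb7*, *Hspb7* and *Hspb8*, and *Hspa1a* and *Hspa1b*. In Mtm1-/y *Hspb7* came first at 762 ± 121 CPM per kilobase, above *Cryab* (508 ± 180) and *Hspb8* (460 ± 150). All 3 of these means differed from their neighbour by less than the sum of the SDs. The order below them was the same as in WT, with *Bag3* at 64.5 ± 9.66, *Hspb1* at 49.98 ± 9.95, *Hsph1* at 8.44 ± 2.08, *Hspa8* at 3.64 ± 0.58, *Dnajb1* at 2.17 ± 0.14, *Hspa1a* at 0.893 ± 0.314 and *Hspa1b* at 0.509 ± 0.158, and there *Bag3* and *Hspb1*, and *Hspa1a* and *Hspa1b*, were also within the sum of their SDs.

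With tamoxifen in both genotypes, 6 of the 10 genes were higher in Mtm1-/y + TAM than in WT + TAM and none was lower, where 10.6% of all tested genes were called higher and 20.1% in either direction. Over the 10 genes the median log2 fold change was 1.05, beside -0.02 over all tested genes. Every mutant library was above every wild-type library in 6 genes, against 17.2% of all tested genes, and 7 genes had an unadjusted p under 0.05, against 33.7% of all tested genes. *Hspb8* had 190, 234, 215 and 203 CPM in WT + TAM and 972, 1021 and 1006 CPM in Mtm1-/y + TAM. Both groups were tight, and the log2 fold change was 2.25 ± 0.19 (adjusted p = 5.08e-06, edgeR). *Hspb1* had 13.4, 13.3, 12.3 and 13.3 CPM in WT + TAM and 41.6, 60.2 and 44.3 CPM in Mtm1-/y + TAM (log2 fold change 1.90 ± 0.17, adjusted p = 9.04e-06, edgeR).

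*Cryab* was separated by genotype here, with 450, 381, 379 and 577 CPM in WT + TAM and 930, 1112 and 1293 CPM in Mtm1-/y + TAM (log2 fold change 1.32 ± 0.24, adjusted p = 0.0019, edgeR). *Bag3* had 96.1, 105, 106 and 142 CPM in WT + TAM and 172, 203 and 152 CPM in Mtm1-/y + TAM (log2 fold change 0.65 ± 0.15, adjusted p = 0.00683, edgeR). Neither gene overlapped between these groups. *Hspb7* had 477, 394, 594 and 1516 CPM in WT + TAM and 1877, 2057 and 2527 CPM in Mtm1-/y + TAM (log2 fold change 1.53 ± 0.42, adjusted p = 0.02, edgeR). Replicate 4 carried the high value of WT + TAM, without which the log2 fold change was 2.14 (adjusted p = 0.00057, edgeR), and was also the highest WT + TAM library for *Cryab* and *Bag3*. The *Hspb7* call was lost when Mtm1-/y + TAM was left without its replicate 2 (adjusted p = 0.0544) or its replicate 3 (0.0665) and when WT + TAM lacked replicate 3 (0.0553). It was also lost without both libraries that stood apart (0.0600), with no count filter (0.0621) and in a fit of the 2 groups alone (0.0568).

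Of the stress-inducible HSP70 genes, *Hspa1a* was called between the treated groups and *Hspa1b* was not. *Hspa1a* had 1.06, 1.07, 0.579 and 0.801 CPM in WT + TAM and 1.96, 3.23 and 1.61 CPM in Mtm1-/y + TAM (log2 fold change 1.40 ± 0.35, adjusted p = 0.0117, edgeR). Without Mtm1-/y + TAM replicate 2 this call was lost (1.04, adjusted p = 0.091). *Hspa1b* had 0.940, 0.816, 0.579 and 0.648 CPM in WT + TAM and 0.901, 1.88 and 1.01 CPM in Mtm1-/y + TAM, so that the groups overlapped (log2 fold change 0.79 ± 0.34, adjusted p = 0.117, edgeR). With both genes summed the log2 fold change was 1.14 ± 0.32 (adjusted p = 0.0213, edgeR). *Hspa8* (-0.21 ± 0.16), *Hsph1* (0.41 ± 0.24) and *Dnajb1* (-0.09 ± 0.15) were not called.

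**Figure D2:**
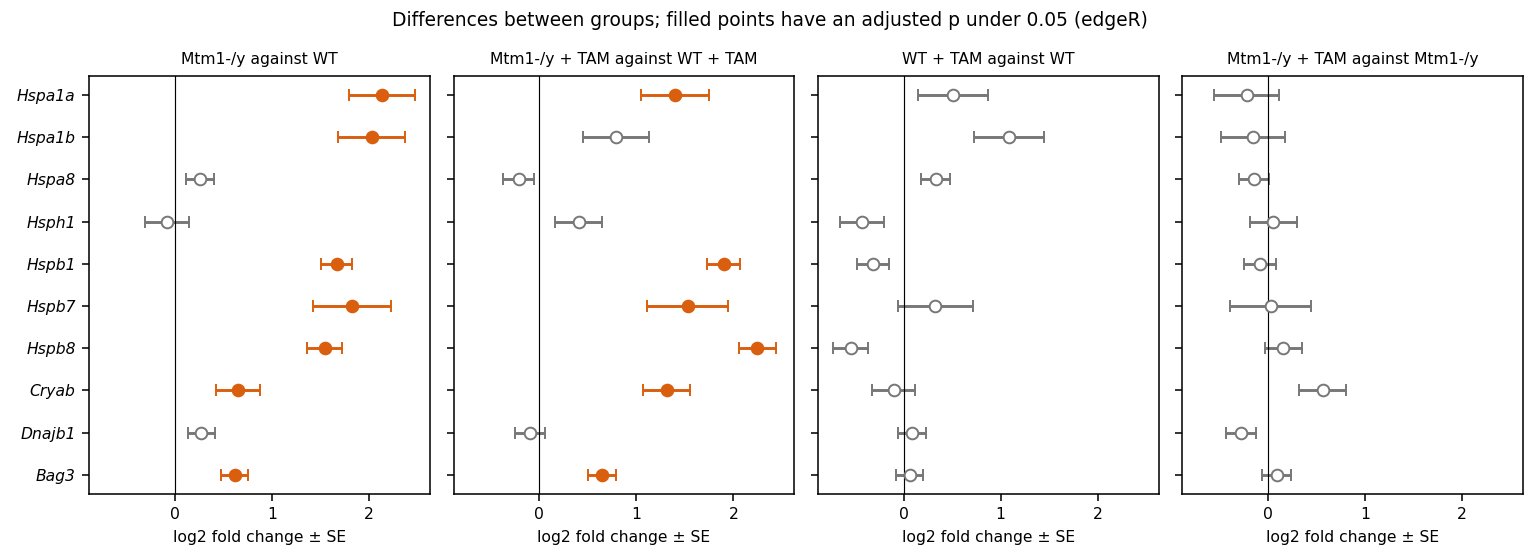
Log2 fold change with its SE (horizontal axis) of each gene in 4 comparisons, with filled points for an adjusted p under 0.05. Filled points appear in both comparisons of genotype, 7 without and 6 with tamoxifen, and in neither comparison of treatment.

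None of the 10 genes was called for tamoxifen in either genotype. In Mtm1-/y + TAM against Mtm1-/y 0.0129% of all tested genes were called (2 genes), and in WT + TAM against WT 0.309% (48 genes). Without both libraries that stood apart, edgeR called 7 and 347 genes in these comparisons and still 0 of the 10. DESeq2 and limma-voom also called 0 of the 10 genes in both comparisons. At an unadjusted p under 0.05 there was 1 of the 10 genes in the mutant comparison and 3 in the wild-type comparison, where 5.54% and 11.3% of all tested genes reached it. In the mutant comparison the 1 gene was *Cryab* (log2 fold change 0.56 ± 0.24, adjusted p = 0.855, edgeR). Its Mtm1-/y + TAM libraries, at 930 to 1293 CPM, overlapped the Mtm1-/y libraries, at 448 to 1022 CPM. *Dnajb1* was the 1 gene without overlap, with 5.62, 6.14 and 5.41 CPM in Mtm1-/y + TAM below the Mtm1-/y libraries (log2 fold change -0.28 ± 0.15, adjusted p = 0.855, edgeR). Over all tested genes 2.38% were lower and 3.33% higher without overlap in this comparison.

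For the other genes the mutant means with and without tamoxifen lay close together relative to the SE. The log2 fold changes in Mtm1-/y were 0.16 ± 0.19 for *Hspb8*, 0.03 ± 0.42 for *Hspb7*, -0.08 ± 0.17 for *Hspb1*, 0.09 ± 0.15 for *Bag3*, -0.22 ± 0.33 for *Hspa1a*, -0.15 ± 0.33 for *Hspa1b*, -0.14 ± 0.16 for *Hspa8* and 0.06 ± 0.24 for *Hsph1*. Adjusted p-values ran from 0.855 to 0.997 over the 10 genes (edgeR). A p that misses the threshold does not show that these genes stayed the same, least of all for *Hspb7*, which had the largest SE of the 10 genes. The spread of *Hspb8* was 292 CPM (SD) around 896 CPM in the 4 Mtm1-/y libraries and 24.9 CPM around 999.8 CPM in the 3 Mtm1-/y + TAM libraries.

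In wild-type muscle *Hspb8* had 190 to 234 CPM in WT + TAM, all below the 275 to 336 CPM in WT (log2 fold change -0.54 ± 0.18, adjusted p = 0.24, edgeR). None of 24 alternative settings called it, and its log2 fold change ran from -0.60 to -0.50 over them. The adjusted p there was 0.0505 to 0.446 (edgeR, DESeq2 and limma-voom fits). *Hspb1* in WT + TAM, at 12.3 to 13.4 CPM, also lay below all WT libraries, at 13.8 to 20.8 CPM (log2 fold change -0.31 ± 0.16, adjusted p = 0.483, edgeR). *Hspa1b* lay above, with 0.579 to 0.940 CPM in WT + TAM and 0.235 to 0.487 CPM in WT (log2 fold change 1.08 ± 0.36, adjusted p = 0.245, edgeR), on 16 to 24 counts a library. Of all tested genes 3.86% were lower and 4.22% higher without overlap. *Hspa8* was the third gene with an unadjusted p under 0.05 (log2 fold change 0.33 ± 0.14, adjusted p = 0.404, edgeR), and its groups overlapped.

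A difference between the genotypes in the effect of tamoxifen was tested as an interaction, which called 0 genes of all those tested and so none of the 10. Over all tested genes DESeq2 called 74 and limma-voom 0, and edgeR called 14 without both libraries that stood apart, 7 without WT + TAM replicate 1 alone and 3 without Mtm1-/y replicate 4. DESeq2 and limma-voom called 0 of the 10 as well, and 3 of the 10 genes had an unadjusted p under 0.05, beside 10.6% of all tested genes. For *Hspb8* the interaction was 0.70 ± 0.26 on the log2 scale (adjusted p = 0.402, edgeR), for *Hspa1b* -1.24 ± 0.49 (adjusted p = 0.415, edgeR) and for *Hspa8* -0.47 ± 0.21 (adjusted p = 0.458, edgeR). The interaction shares its libraries with the comparisons given above.

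Across the 15 libraries the called genes ran together, some pairs more closely than others. Pearson's r of log2 CPM was 0.97 for *Hspb1* and *Hspb8*, 0.94 for *Hspa1a* and *Hspa1b*, 0.89 for *Hspb7* and *Bag3* and 0.88 for *Hspb8* and *Bag3*. These values follow the 4 groups, and after the group means were taken out r was 0.55, 0.86, 0.56 and 0.54 for the same pairs. *Hspb7* with *Hspb8* went from 0.83 to 0.13. The lowest r among the called genes was 0.64, for *Hspa1b* with *Cryab*. After the group means were taken out the lowest was 0.11, for *Hspa1a* with *Hspb7*, which had 0.80 before. *Hspb8* with *Cryab* kept 0.73 of 0.86, and *Hspa1b* with *Hspb1* had 0.85 after and 0.79 before. The points share library, depth and scaling factor, and *Hspa1a* and *Hspa1b* also share sequence, so these values are descriptions over 15 libraries.

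**Figure D3:**
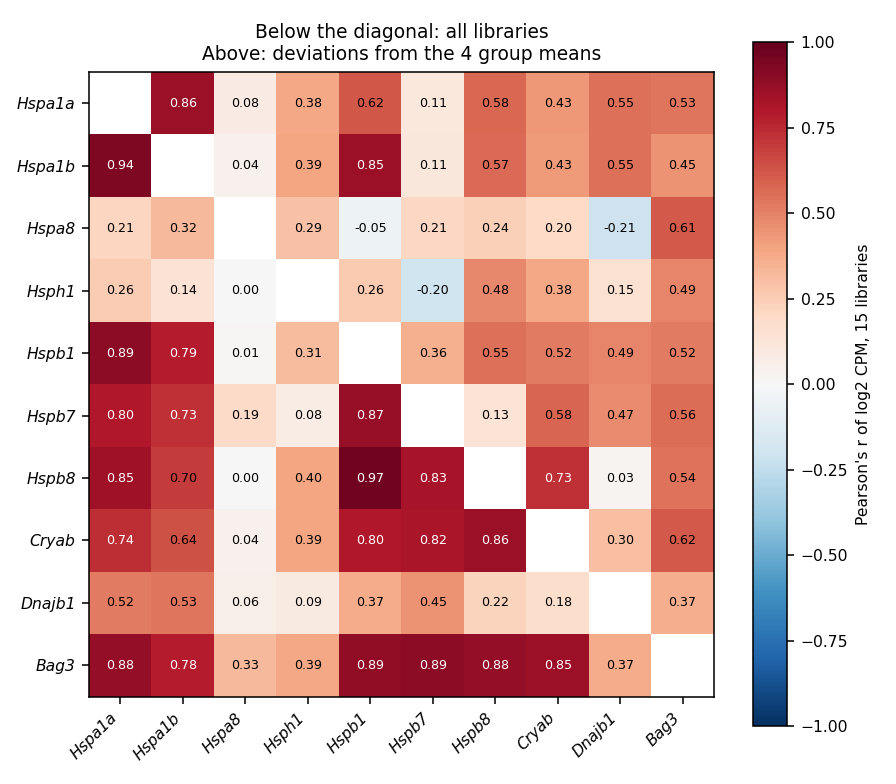
Pearson's r of log2 CPM between each pair of the 10 genes over 15 libraries, below the diagonal for all libraries and above it for deviations from the 4 group means (colour scale from -1 to 1). *Hspa8*, *Hsph1* and *Dnajb1* have low values below the diagonal with most of the other genes, the highest being 0.53 for *Dnajb1* with *Hspa1b*.

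Among 11058 genes whose mean log2 CPM reached 1, the 3 most like each of the 10 genes over the 15 libraries were named by Pearson's r of log2 CPM, which again follows the groups. For *Hspb8* the 3 highest were *Arl6ip5* (0.985), *Nfkb2* (0.980) and *S100a13* (0.980), and for *Hspb1* they were *S100a13* (0.983), *Fam214b* (0.978) and *Mvp* (0.977). *S100a13*, which encodes a calcium-binding protein, was thus named for both. *Bag3* was most like *Tead4* (0.967), *Vps37c* (0.963) and *Shc4* (0.961). *Hspa1a* was most like *Lmna* (0.959), *Cep170b* (0.951) and *Plpp1* (0.950), where *Lmna* encodes the A-type lamins, and *Hspa1b* was most like *Scx* (0.939), *Sf3b5* (0.931) and *Slc35e4* (0.925). For *Hspb7* the genes were *Plekha1* (0.952), *2010111I01Rik* (0.943) and *Actn2* (0.940), the last of which encodes the Z-disc protein α-actinin-2, and for *Cryab* *Stau2* (0.931), *Stom* (0.922) and *Morc4* (0.920). For the genes that were not called the values were lower, at *Hpdl* (0.842), *Tubgcp4* (0.823) and *Ergic1* (0.807) for *Hsph1*, *Rbm38* (0.836), *Uqcrb* (0.805) and *Tspan7* (0.796) for *Hspa8* and *Smg8* (0.763), *Lama2* (0.747) and *Tyw5* (0.737) for *Dnajb1*.

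Reads of several of these genes could not be assigned without doubt. Of 50-base windows along annotated transcripts, 66.3% of those of *Hspa1a* and 62.3% of those of *Hspa1b* also occurred in another gene, mostly in each other. Reads that match more than 1 gene may be left uncounted, and no source used here states how they were treated. For *Hspb1* 50.1% of windows were shared, chiefly with the processed pseudogene *Hsp25-ps1* (48.8%). *Gm9817*, annotated as protein coding, held 38.3% of the *Hspb1* windows and was not in the count table. *Hsp25-ps1* had 0 to 3 counts per library in the WT and WT + TAM groups and 6 to 15 in the mutant groups, and was itself called higher in Mtm1-/y than in WT (log2 fold change 2.85 ± 0.73, adjusted p = 0.0084, edgeR).

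*Hspa8* shared 39.4% of its windows with 16 other genes, of which 12 were processed pseudogenes. The pseudogene *Gm15459* alone, which was singled out after its counts were seen, shared 34.6% of the *Hspa8* windows and carried 1064 to 3121 counts per library, more than *Hspa8* itself with 245 to 792. With both summed the level was 66.9 ± 6.71 CPM in WT (n = 4), 84.8 ± 12.9 in WT + TAM (n = 4), 74.2 ± 17.4 in Mtm1-/y (n = 4) and 66.2 ± 9.17 in Mtm1-/y + TAM (n = 3), against 13.1 ± 1.62, 16.4 ± 2.87, 15.7 ± 2.5 and 14.2 ± 1.66 CPM for *Hspa8* alone. The level of *Hspa8* and its place in the order above therefore hold for the reads assigned to *Hspa8* only. The sum was not called between Mtm1-/y and WT (log2 fold change 0.15 ± 0.15, adjusted p = 0.494, edgeR), as *Hspa8* alone was not.

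*Cryab* shared 13.3% of its windows with *Hspb2*, which it overlaps by 1030 bases on the opposite strand of chromosome 9. *Hspb2* had 2036 to 6096 counts per library, was not called between Mtm1-/y and WT (log2 fold change 0.34 ± 0.13, adjusted p = 0.0575, edgeR) and had a smaller difference than *Cryab* between the treated groups (0.32 ± 0.14). The libraries were stranded, but no source used here states whether the counting used strand. *Hspb8*, *Bag3* and *Hsph1* shared no window with another gene, and *Hspb7* and *Dnajb1* shared 0.703% and 0.412%. *Hspa1a* overlaps Gm20481 on the opposite strand and *Bag3* overlaps 2610306O10Rik on its own strand, with 0 to 1 and 2 to 12 counts per library in the overlapping gene.

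**Figure D4:**
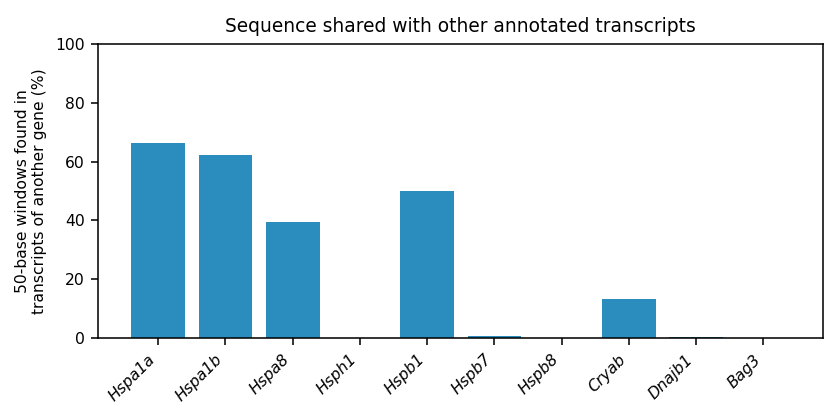
Share of all 50-base windows along the annotated transcripts of each gene that also occur in a transcript of another gene (vertical axis, percent). *Hspa1a*, *Hspa1b*, *Hspb1* and *Hspa8* stand between 39.4% and 66.3%, and *Hspb8*, *Bag3* and *Hsph1* at 0.

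Beyond the 10 genes, 106 other chaperone genes in 10 lists were examined, of which 102 were tested (*Stub1* stands in 2 lists). Between Mtm1-/y and WT 24 of them were called higher and 15 lower, with a median log2 fold change of 0.09, beside 15.5% higher and 14.9% lower among all tested genes. The largest called changes in each list were named. The difference between the 10 genes and these lists was not tested.

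Of 4 other small heat shock protein genes tested, *Hspb3* was called (log2 fold change 0.49 ± 0.15, adjusted p = 0.022, edgeR), and *Hspb6*, at 646 ± 77.6 CPM in WT, was not (0.09, adjusted p = 0.777). Of 8 other HSP70 and HSP110 genes, *Hspa2* (0.91 ± 0.13) and *Hspa1l* (0.61 ± 0.18) were higher, and *Hspa12b* (-0.91 ± 0.12) and *Hspa12a* (-0.57 ± 0.15) lower. *Hspa2* is best known from the testis and *Hspa12b* from endothelium. All 5 endothelial markers were also lower in Mtm1-/y than in WT, their sum being 210 to 281 CPM against 406 to 520 CPM, and none of the 5 had a count of 0. The part of endothelium in the *Hspa12b* result was not tested.

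Chaperone-assisted selective autophagy uses BAG3 and HSPB8 with filamin C, synaptopodin 2, the ubiquitin ligase CHIP and autophagy adaptors. Of its 7 listed partners, 3 were called higher, namely *Map1lc3a*, which encodes an LC3 protein of the autophagosome (log2 fold change 1.29 ± 0.20, adjusted p = 0.000314, edgeR), *Flnc*, which encodes filamin C (0.81 ± 0.27, adjusted p = 0.0314) and *Sqstm1*, which encodes the adaptor p62 (0.69, adjusted p = 0.00393). *Synpo2* was called lower (-0.41 ± 0.15, adjusted p = 0.0433), and *Stub1*, which encodes CHIP, was not called (0.08, adjusted p = 0.722). The *Synpo2* call was lost, with an adjusted p of up to 0.127, without WT replicate 1, 2 or 4, Mtm1-/y replicate 1, 2 or 4, or any Mtm1-/y + TAM library. The *Flnc* call was lost, with an adjusted p of up to 0.092, without WT replicate 1, 3 or 4 or Mtm1-/y replicate 4.

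Of 15 other J-domain genes, 4 were higher, led by *Dnajb6* (0.64 ± 0.12), whose product is linked to a limb-girdle muscular dystrophy, and *Dnajc2* (0.36 ± 0.11), and 3 lower, led by *Dnajc27* (-0.83 ± 0.11) and *Dnajc13* (-0.56 ± 0.09). Of 8 other BAG proteins and HSP70 regulators, 3 were higher and none lower, with *Bag1* at 0.43 ± 0.08 and *Bag6* at 0.33 ± 0.08. Of 16 genes of HSP90 and its co-chaperones, 3 were higher and 2 lower. They included *Fkbp5*, a glucocorticoid-responsive immunophilin (2.17 ± 0.69, adjusted p = 0.0309, edgeR), *Tomm34* (0.42 ± 0.10), *Fkbp4* (-0.45 ± 0.09) and *Ppid* (-0.33 ± 0.11). *Fkbp5* varied widely within Mtm1-/y (174.9 ± 139 CPM, n = 4), and its adjusted p was 0.102 without Mtm1-/y replicate 1. Leaving out any 1 WT library or Mtm1-/y replicate 3 also ended that call.

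Of 4 heat shock factor genes tested, *Hsf4* (0.98 ± 0.16, adjusted p = 0.000479, edgeR) and *Hsf2* (0.48 ± 0.12, adjusted p = 0.00826) were higher, while *Hsf1*, which encodes the factor that heat activates, was not called (0.09, adjusted p = 0.443). HSF1 is controlled at the protein level, which these libraries do not measure. Of 14 genes of the cytosolic chaperonin and prefoldin, 4 were higher and none lower, led by *Pfdn5* (0.55 ± 0.09) and *Pfdn2* (0.55 ± 0.09). Of 11 mitochondrial chaperone genes, none was higher and 4 were lower, led by *Hspd1*, which encodes HSP60 (-0.51 ± 0.13), and *Dnaja3* (-0.43 ± 0.12). Of 16 genes of the endoplasmic reticulum, *Xbp1* (0.77 ± 0.15) and *Dnajb11* (0.30 ± 0.08) were higher and 3 were lower, led by *Ddit3* (-0.87 ± 0.11) and *Calr* (-0.32 ± 0.11). Among the genes named from these lists, further calls that ended without 1 library were those of *Hspa1l* (WT replicate 4 or Mtm1-/y replicate 2, adjusted p up to 0.0568), *Hspb3* (WT replicate 4 or Mtm1-/y replicate 2 or 4, up to 0.0717) and *Dnajc2* (WT replicate 2 or 4 or Mtm1-/y replicate 1, up to 0.069). The same held for *Ppid* (WT replicate 1 or 2 or Mtm1-/y replicate 1 or 2, up to 0.0957) and *Calr* (any WT library or Mtm1-/y replicate 1 or 2, up to 0.0935).

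**Figure D5:**
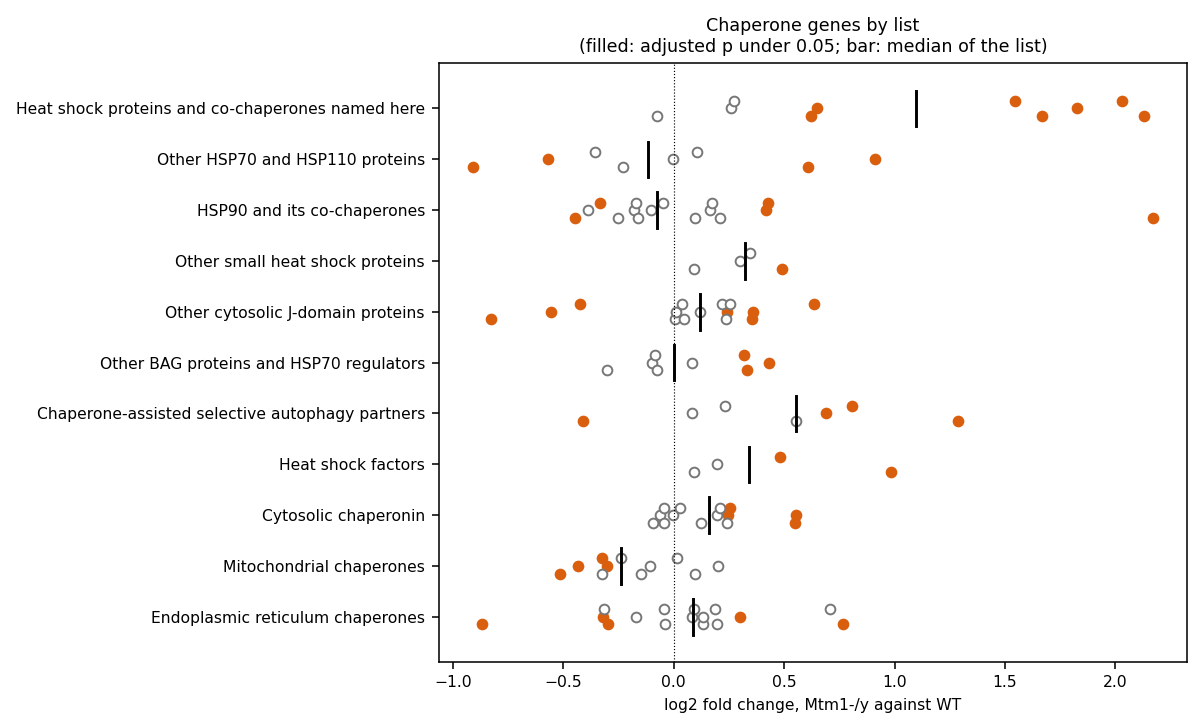
Log2 fold change of each tested gene between Mtm1-/y and WT (horizontal axis) in the 10 genes (top line) and 10 lists of other chaperones, with filled points for an adjusted p under 0.05 and a bar at the median of each list. The medians of the lists lie between -0.24 and 0.55, all to the left of the median in the top line.

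Between the treated groups 20 of the 102 other chaperone genes were higher and 6 lower, beside 10.6% and 9.46% of all tested genes. *Hspa2* (0.90 ± 0.14), *Hspb3* (0.84 ± 0.16), *Hsf4* (0.74 ± 0.17), *Dnajb6* (0.49 ± 0.12) and *Bag1* (0.49 ± 0.08) were among those called in this comparison too. Those not called included *Map1lc3a* (0.50 ± 0.21), *Fkbp5* (-0.85 ± 0.73), *Hspa1l* (0.28 ± 0.19), *Bag6* (-0.02 ± 0.09), *Ddit3* (-0.19 ± 0.12), *Hspd1* (-0.21 ± 0.14) and *Xbp1* (0.16 ± 0.16). By list, 0 of 11 mitochondrial chaperone genes and 1 of 7 autophagy partners were called. Of the heat shock factors 3 of 4 were called, and of the chaperonin and prefoldin genes 5 of 14, all higher. For tamoxifen 0 of the 102 genes were called in Mtm1-/y and 1 in WT, *Xbp1*, the transcription factor of the unfolded protein response (log2 fold change 0.83, adjusted p = 0.0296, edgeR). This call was lost without any 1 of the WT libraries, without WT + TAM replicate 2, 3 or 4, and in a fit of the 2 groups alone.

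Lists of other genes were read against the 15.5% of all tested genes that were higher and the 14.9% that were lower in Mtm1-/y than in WT. Of 12 immediate early genes, which respond to handling and to many stimuli, 8 were higher in Mtm1-/y than in WT and none lower, with a median log2 fold change of 0.85. Their sum was 382 to 465 CPM in WT, 498 to 614 in WT + TAM, 464 to 623 in Mtm1-/y and 420 to 490 in Mtm1-/y + TAM. Of 10 macrophage markers 2 were higher in Mtm1-/y, with sums of 28.5 to 52.5 CPM in WT and 34.5 to 89.6 CPM in Mtm1-/y, and of 5 satellite cell markers 1 was higher and 3 lower, with sums of 90.8 to 146 and 82.9 to 125 CPM. Of 8 slow fibre markers 1 was higher and 1 lower, with sums of 124 to 174 CPM in WT and 199 to 307 CPM in Mtm1-/y. Among the other lists, 1 of 6 fibroblast, 1 of 6 adipocyte and 2 of 5 Schwann cell markers were higher and none lower. None of 5 blood markers was called, and of 8 skeletal muscle fibre markers 1 was higher and 2 lower. No marker of macrophages, satellite cells or slow fibres had a count of 0 in any library. Their part in the differences of the 10 genes was not tested.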

How the data were processed

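Polyadenylated RNA of the tibialis anterior was sequenced from TruSeq Stranded libraries in 15 samples. The authors deposited raw read counts per Ensembl gene, with no normalization. According to the submitters' processing notes, the builds were mm10 and GRCm38 and the tools STAR 2.5.3a, HTSeq 0.6.1p1, Bowtie2 2.2.8 and cutadapt 1.10. Neither the role of each tool nor the strand setting is stated there. All 30672 identifiers matched GENCODE M21, which gave symbols, positions and exon lengths. Groups were taken from the labels.

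Counts were filtered with filterByExpr (minimum count 10) and scaled with TMM, and a quasi-likelihood model of 4 group means was fitted to all 15 libraries (edgeR 4.0.16, R 4.3.3, glmQLFit with robust estimation, 11 residual degrees of freedom). Contrasts were tested two-sided over 15533 genes with Benjamini-Hochberg adjustment, and a gene was called at an adjusted p under 0.05. DESeq2 1.42.0, limma-voom (limma 3.58.1), other factors and filters, single libraries left out and a replicate block were alternatives. Log2 CPM used a prior count of 2. The pipeline was tested on simulated counts. The numbers of the replicates are titles in the labels, which tie no number to an animal or litter, so p-values measure the spread between these samples. Total counts were 18042558 to 45823277, at which 1 count is worth 0.0218 to 0.0554 CPM before TMM scaling. The common biological coefficient of variation was 20.8%.

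The 10 genes, the lists of other chaperones and markers, and the tests were chosen with earlier results of these data known, so counts over them are descriptions. In each list of other chaperones the 2 highest and 2 lowest called genes between Mtm1-/y and WT were named, with others singled out by role after their values were seen. Further settings were chosen after seeing the data, namely a fit that dropped replicate 1 of both WT + TAM and Mtm1-/y, and *Hspa8* summed with *Gm15459*.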

Additional observations from a re-analysis of the deposited data

Results flagged for a closer look

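*Hsph1* in WT replicate 1, at 94.6 CPM, stood apart from the other 3 WT libraries, at 51.1 to 57.6 CPM, by Dixon's criterion for 4 samples. *Hspb1* in WT + TAM replicate 3, at 12.3 CPM, was below the other 3, at 13.3 to 13.4 CPM, by the same criterion, in a group whose coefficient of variation was 3.79%. In 30 groups of 4 libraries 2 met the criterion, where chance gives about 1 in 20.

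For *Hspb8* the log2 fold changes with tamoxifen were -0.54 ± 0.18 in WT and 0.16 ± 0.19 in Mtm1-/y, of opposite sign, and neither was called. The test of the difference gave an interaction of 0.70 on the log2 scale with an unadjusted p of 0.0156 and an adjusted p of 0.402 over all tested genes (edgeR), so it was not called.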

How the results depend on the processing

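The count of the 10 genes called between Mtm1-/y and WT was 6 to 7 without 1 library at a time and between the treated groups 4 to 6, and it was 0 for both tamoxifen comparisons and the interaction throughout. Over all tested genes, main counts of 4727 (Mtm1-/y against WT), 2 (tamoxifen in Mtm1-/y), 48 (tamoxifen in WT), 3121 (genotype under tamoxifen) and 0 (interaction) became 3693 to 5116, 0 to 5, 11 to 143, 1656 to 4097 and 0 to 7 without 1 library at a time. Requiring an absolute log2 fold change over 1 gave 1536 and 934 genes for the comparisons of genotype. With no count filter there were 1 gene for tamoxifen in Mtm1-/y and 2 for the interaction. DESeq2 gave 4, 298 and 74 genes for tamoxifen in Mtm1-/y, tamoxifen in WT and the interaction, a fit of only the 2 groups compared gave 1 for tamoxifen in Mtm1-/y, and the fit without both libraries that stood apart gave 7, 347 and 14. The cause was not tested. With upper-quartile factors 2081 genes were higher and 2721 lower in Mtm1-/y, beside 2407 and 2320.

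The 102 other chaperone genes had 39, 1 and 26 calls for genotype, tamoxifen in WT and genotype under tamoxifen, which became 26 to 41, 0 to 2 and 17 to 33 without 1 library at a time. With an absolute log2 fold change over 1 they were 2, 0 and 0. For tamoxifen in WT, DESeq2 called 2 of them, the 2 groups alone 0 and the fit without both libraries 3, and for the interaction the first and last of these called 1 each, against 0.

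No value that changed direction was called. Without both libraries, *Hsph1* was 0.064 between genotypes and -0.087 for tamoxifen in Mtm1-/y, and *Bag3* was -0.0035 for tamoxifen in Mtm1-/y and -0.13 for the interaction. Without 1 library at a time, log2 values ran from -0.20 to 0.17 for *Hsph1* between genotypes. For tamoxifen in Mtm1-/y they ran from -0.57 to 0.019 for *Hspa1b*, -0.16 to 0.24 for *Hsph1*, -0.26 to 0.045 for *Hspb1*, -0.10 to 0.13 for *Hspb7* and -0.030 to 0.19 for *Bag3*. For tamoxifen in WT they ran from -0.28 to 0.59 for *Hspb7*, -0.25 to 0.021 for *Cryab* and -0.071 to 0.13 for *Bag3*, and for the interaction from -0.56 to 0.32 for *Hspb7*, which reversed in both comparisons without WT + TAM replicate 4, and -0.091 to 0.16 for *Bag3*.

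With the replicate number as a block the 10 genes gave 7 calls for genotype, 6 for genotype under tamoxifen and 0 otherwise, and all tested genes 4473, 2, 33, 2792 and 0. Deviations of samples with the same number had a median r of -0.0041 over 21 pairs, 6 of them over 0.1 and the highest 0.31. For samples with other numbers the median was -0.013 over 63 pairs, 10 of them over 0.1 and the highest 0.21. These values cannot decide whether the numbers pair the samples. The counts of *Hspa1a* and *Hspa1b*, at 8 to 26 per WT or WT + TAM library, limit their precision.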
